A study of Mus musculus with 20 samples.

Results

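Cyp4a10, Cyp4a14, Cyp4a31 and Cyp4a32 are the mouse cytochrome P450 4A genes examined here, taken by symbol as 4 of the 53599 gene rows of 2 deposited count matrices, one per genotype. Each was given across 20 libraries of bulk mouse liver RNA that fall into 8 groups by PPARa genotype, sex and drinking water. The hPPARa groups are mice expressing a human PPARa transgene, with 3 female and 2 male libraries on vehicle and 2 female and 3 male libraries on PFOA (perfluorooctanoic acid, a surfactant that activates PPARa). The KO groups are PPARa knockout mice, with 1 female and 3 male libraries on vehicle and 3 female and 3 male libraries on PFOA. Vehicle was water with 0.5% sucrose, and PFOA water held the same sucrose with PFOA at 8 µM (the unit sign in the labels was read as micromolar), given for 6 to 7 weeks from weaning. All groups ate the same custom diet with 33.5% of energy as fat, 51.8% as carbohydrate and 14.7% as protein. No wild-type mouse with its own receptor was among these libraries. The labels give neither the promoter of the transgene, nor the strain, nor whether a library came from 1 animal or a pool.

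CYP4A enzymes sit in the endoplasmic reticulum and place a hydroxyl group on the last carbon of a fatty acid, the first step of omega-oxidation. Alcohol and aldehyde dehydrogenases then turn that end into another carboxyl group, and the dicarboxylic acid is activated to a CoA ester and shortened in peroxisomes. PPARa is a nuclear receptor for fatty acids that pairs with RXR and binds direct repeats upstream of its targets, and rodent liver Cyp4a10 and Cyp4a14 are among the most used readouts of its activation. Cyp4a31 and Cyp4a32 are close copies of Cyp4a10, and the 4 genes lie beside one another on mouse chromosome 4.

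How far the 4 rows can be told apart depends on sequence, so the coding starts are shown first. They are transcript sequences of GENCODE mouse release M21 (build GRCm38), coding bases 1 to 90, 5′ to 3′, with capitals at the bases that differ from Cyp4a10.
Cyp4a10: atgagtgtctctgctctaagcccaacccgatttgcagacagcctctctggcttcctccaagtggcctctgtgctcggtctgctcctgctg
Cyp4a32: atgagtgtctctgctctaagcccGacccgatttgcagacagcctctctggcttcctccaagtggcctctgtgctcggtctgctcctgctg
Cyp4a31: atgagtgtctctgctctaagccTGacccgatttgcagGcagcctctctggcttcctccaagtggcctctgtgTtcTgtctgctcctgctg
Cyp4a14: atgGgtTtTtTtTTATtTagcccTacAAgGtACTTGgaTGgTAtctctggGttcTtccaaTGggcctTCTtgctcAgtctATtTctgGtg
Cyp4a32 differed from Cyp4a10 at 1 of these 90 bases, Cyp4a31 at 5 and Cyp4a14 at 34. Over the whole coding sequence (1527 bases, and 1521 in Cyp4a14), Cyp4a10 was 97.18% identical to Cyp4a32 and 96.59% identical to Cyp4a31, while Cyp4a31 and Cyp4a32 were 96.01% identical. Cyp4a14 was 76.79% identical to Cyp4a10 over the aligned bases, 76.7% to Cyp4a32 and 76.19% to Cyp4a31.

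The longest coding run common to all 3 of Cyp4a10, Cyp4a31 and Cyp4a32 is 148 bases (coding bases 1279 to 1426), in the region that encodes the heme-binding loop. It is shown because a read inside it cannot be given to 1 of the 3 genes; the same stretch of Cyp4a14 (coding bases 1273 to 1420) follows, with capitals at its 24 differences.
Cyp4a10, Cyp4a31 and Cyp4a32: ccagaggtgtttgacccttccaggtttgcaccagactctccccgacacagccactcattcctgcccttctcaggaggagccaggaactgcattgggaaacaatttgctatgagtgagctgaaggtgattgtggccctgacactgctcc
Cyp4a14: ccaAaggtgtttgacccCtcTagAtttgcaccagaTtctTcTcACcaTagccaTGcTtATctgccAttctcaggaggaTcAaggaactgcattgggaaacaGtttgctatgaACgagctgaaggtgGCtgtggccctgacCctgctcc
Of all stretches of 100 bases in the annotated transcripts, 20.1% of those of Cyp4a32, 12.7% of those of Cyp4a10 and 8.22% of those of Cyp4a31 also occurred in another of these 3 genes. None of the stretches of that length in Cyp4a14 occurred in another Cyp4 gene. For stretches of 150 bases the shares were still 7.97% in Cyp4a32, 4.34% in Cyp4a10 and 4.19% in Cyp4a31. No label gives the read length or the treatment of reads with several matches, so the rows of Cyp4a31 and Cyp4a32 are uncertain where Cyp4a10 is abundant, and the sum of the 4 rows was tested beside them.

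Each library held 14973673 to 17953860 counts on gene rows. Levels are given as CPM, the count relative to library size, scaled by normalisation factors (TMM) of 0.914 to 1.08. The Ppara row had counts in every library, KO included, at 16.6 to 39.5 CPM in hPPARa and 8.47 to 25.2 CPM in KO, and on vehicle it did not differ (log2 difference -0.19 ± 0.22 SE, adjusted p = 0.685). No label says which part was deleted or whether transgene reads fall on this row, so it does not check the genotype labels. Hepatocyte markers summed to at least 78144.5 CPM in every library and markers of fat and kidney to at most 1.14 CPM. Transcripts of the other sex were present in 3 KO libraries: KO female PFOA replicate 2 (Ddx3y, a Y-linked gene, at 4.07 CPM), KO female vehicle replicate 1 (Ddx3y at 1.85 CPM) and KO male PFOA replicate 2 (Xist, the transcript of the inactive X, at 31.0 CPM). KO female vehicle replicate 1, the only library of its group, also held the bile duct marker Krt19 at 60.5 CPM, against at most 3.62 CPM elsewhere. The main KO results of each of the 4 genes are given with and without these 3 libraries. KO results of other genes, of the gene lists and of the sum of the 4 rows include them throughout.

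PFOA raised all 4 genes in hPPARa mice, and Cyp4a14 and Cyp4a10 reached the highest levels. Together the 4 rows went from 0.00126% to 0.0179% of a library's counts on vehicle to 1.16% to 1.54% on PFOA. The fit with sex as a term (edgeR quasi-likelihood test, Benjamini-Hochberg adjustment over all genes tested) called 4 of 4 higher, where 12.8% of the 14400 genes tested were called higher. The median log2 fold change over all genes was -0.01. Each ± SE of an edgeR fit in this text was worked back from the log2 fold change and its test statistic, and is approximate.

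Cyp4a14 had the highest CPM of the 4 in every hPPARa PFOA library. Its level on vehicle was 58.9, 78.1 and 104 CPM in the hPPARa females and 11.8 and 4.15 CPM in the males. On PFOA the Cyp4a14 level was 10100 and 8402 CPM in females and 9018, 7543 and 8978 CPM in males. Every PFOA library of Cyp4a14 was above every vehicle library, and the sexes overlapped on PFOA but not on vehicle. The fitted log2 fold change of Cyp4a14 was 8.36 ± 0.86 SE (adjusted p = 0.000457), a 328-fold rise.

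Cyp4a10, whose product acts on the same kind of medium and long fatty acids, followed the same order of groups. Its level on vehicle was 47.7, 62.7 and 85.5 CPM in females and 17.8 and 4.61 CPM in males. On PFOA it was 4904 and 4083 CPM in females and 3923, 3750 and 4311 CPM in males. Here too the exposure groups were far apart, and the sexes overlapped only on PFOA. The log2 fold change of Cyp4a10 was 7.23 ± 0.69 SE (adjusted p = 0.000268), or 150-fold.

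On PFOA, Cyp4a32 and Cyp4a31 stayed at much lower CPM than the other pair. In vehicle males the CPM of Cyp4a32 was close to that of Cyp4a14. Cyp4a32 was at 14.8, 8.57 and 4.81 CPM in vehicle females and 12.3 and 3.74 CPM in vehicle males, with no separation of the sexes. On PFOA it was at 241 and 205 CPM in females and 238, 179 and 264 CPM in males, a log2 fold change of 4.68 ± 0.39 SE (adjusted p = 9.05e-05; 25.6-fold). Among the vehicle females, the library lowest in Cyp4a10 was the highest in Cyp4a32, and the library highest in Cyp4a10 was the lowest in Cyp4a32.

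Cyp4a31 was at 1.51, 1.14 and 1.83 CPM in vehicle females and 0.26 and 0.13 CPM in vehicle males. On PFOA it stood at 62.2 and 52.3 CPM in females and 51.6, 32.6 and 66.3 CPM in males. As for Cyp4a10 and Cyp4a14, the female vehicle libraries lay above the male ones and the sexes overlapped on PFOA. The log2 fold change of Cyp4a31 was 5.90 ± 0.41 SE (adjusted p = 2.42e-05; 59.7-fold). The sum of the 4 rows rose by 7.64 ± 0.69 SE (log2; adjusted p = 0.000178).

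**Figure D1:**
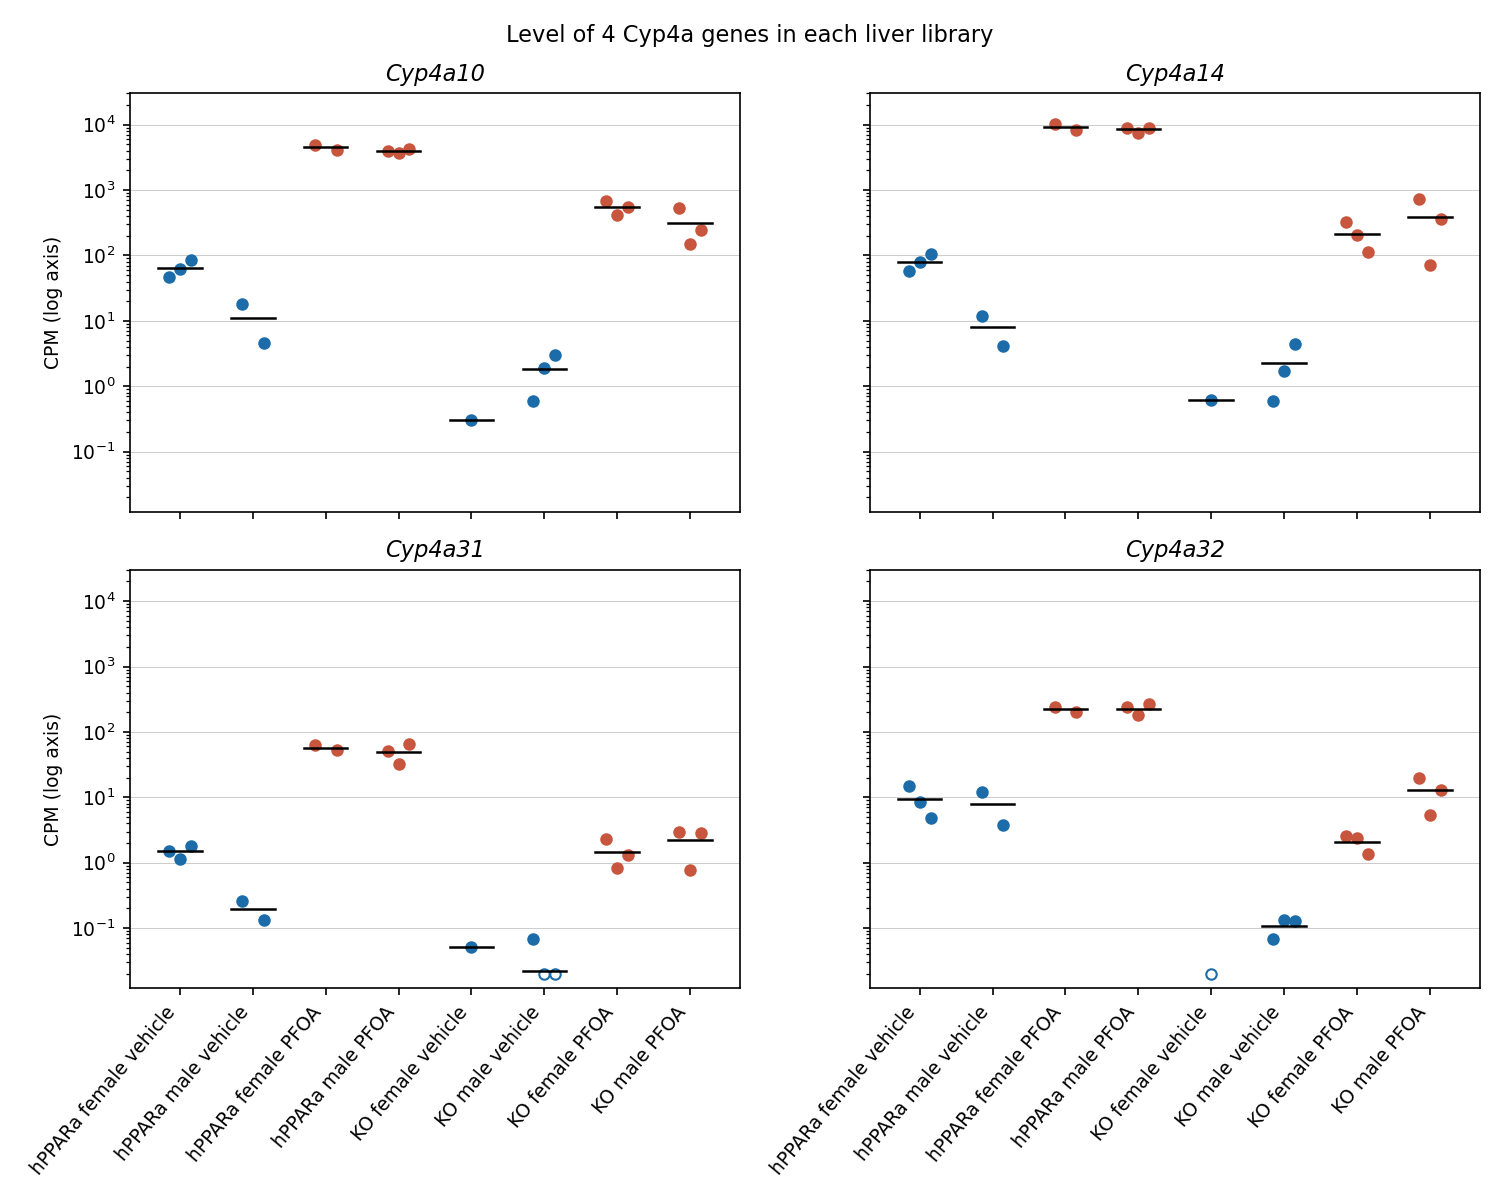
Level of each of the 4 genes in each of the 20 libraries (y axis, CPM on a log axis) by group (x axis); blue points are vehicle libraries, red points PFOA libraries, black bars group means, and open points at the bottom are libraries with no count. The hPPARa PFOA libraries are highest in each panel (Cyp4a14 at 7543 to 10100 CPM), and the KO vehicle libraries lie at the bottom (Cyp4a14 at 0.60 to 4.51 CPM).

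Compared per kilobase of merged exon, the order of levels on PFOA was the same in both hPPARa sexes. In hPPARa females on PFOA Cyp4a14 had 3557 ± 462 CPM per kb (SD, n = 2), Cyp4a10 2130 ± 275, Cyp4a32 145 ± 16.8 and Cyp4a31 22.8 ± 2.78. On vehicle, hPPARa females had nearly the same length-scaled level of Cyp4a10 (31.0 ± 9.03 CPM per kb, SD, n = 3) and Cyp4a14 (30.9 ± 8.74), which did not differ beyond their spread. In bulk tissue, fewer cells of a type and less RNA per cell cannot be told apart. Beside the rise on PFOA, 6 of 10 hepatocyte markers fell in hPPARa (summed level 130052 to 225334 CPM on vehicle, 93199 to 139272 CPM on PFOA), 3 of 8 Kupffer cell markers fell and 4 of 6 endothelial markers rose. Over all 14400 genes tested there, 9.76% were called lower and 12.8% higher. Of the 6 neutrophil markers 2 were tested and 1, S100a8, rose, with a summed level of 0.40 to 1.08 CPM on vehicle and 3.363 to 9.01 CPM on PFOA. The part of these shifts in the result was not tested.

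PFOA also raised all 4 genes in KO mice, from lower levels to lower levels. With sex as a term, 4 of 4 were called higher, where 7.41% of the 15334 genes tested were called higher; the median log2 fold change over all genes was -0.02. The 4 rows together took 0.000106% to 0.000735% of the counts in KO vehicle libraries and 0.0226% to 0.134% on PFOA.

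In KO females on PFOA, Cyp4a10 had more counts than Cyp4a14 in each library. It was at 0.31 CPM in the 1 KO female vehicle library and 0.60, 1.88 and 2.98 CPM in the KO vehicle males. On PFOA its level was 682, 410 and 547 CPM in KO females and 530, 150 and 249 CPM in KO males, so the sexes overlapped. The log2 fold change of Cyp4a10 was 8.06 ± 0.81 SE (adjusted p = 0.000819). Cyp4a14 was at 0.62 CPM in the KO vehicle female and 0.60, 1.74 and 4.51 CPM in the KO vehicle males. On PFOA Cyp4a14 was at 321, 204 and 112 CPM in KO females and 723, 70.9 and 366 CPM in KO males. The males spread over a wider range than the females and enclosed them. The log2 fold change of Cyp4a14 was 7.60 ± 1.01 SE (adjusted p = 0.00314).

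Cyp4a31 and Cyp4a32 were close to the limit of counting in KO vehicle libraries. Cyp4a32 had 5 counts in the 4 KO vehicle libraries together and none in the female one. On PFOA it was at 2.57, 2.37 and 1.35 CPM in KO females and 19.9, 5.36 and 12.9 CPM in KO males, with every male above every female. The log2 fold change of Cyp4a32 was 6.84 ± 0.60 SE (adjusted p = 4.98e-05), and the ratio of summed counts per total was 97.7 (95% interval 41.7 to 302, exact, counting error only). That ratio pools the sexes, which were mixed unequally in the vehicle and PFOA arms. In males alone it was 124 (53.0 to 384). Against the floor of 3 counts in the KO female vehicle library (0.154 CPM), the mean of the KO females on PFOA was at least 13.6-fold higher. Cyp4a31 had 2 counts in the 4 KO vehicle libraries and 195 in the 6 KO PFOA libraries. Its rate ratio, with the sexes pooled, was 61.1 (95% interval 16.7 to 508), and in males alone 107 (18.8 to 4250). On PFOA Cyp4a31 was at 2.30, 0.83 and 1.30 CPM in KO females and 2.92, 0.78 and 2.87 CPM in KO males, which overlapped. Its fitted log2 fold change was 5.69 ± 0.75 SE (adjusted p = 0.000397), a value that depends on the prior at so few counts.

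Within KO males, where both arms had 3 libraries, 4 of 4 genes were again called higher, against 5.63% of genes tested. The log2 fold changes were 7.40 ± 0.75 SE for Cyp4a10 (adjusted p = 0.00208), 7.39 ± 1.23 for Cyp4a14 (0.0171), 6.24 ± 0.96 for Cyp4a31 (0.00229) and 6.77 ± 0.68 for Cyp4a32 (0.000406). Without KO male vehicle replicate 1 or replicate 2, Cyp4a14 no longer passed (adjusted p = 0.0589 and 0.0643, edgeR). Without the 3 libraries that carry transcripts of the other sex, no KO female vehicle library is left and the KO effect is that of the males alone: 7.72 ± 0.63 SE for Cyp4a10, 7.88 ± 0.97 for Cyp4a14, 6.62 ± 0.70 for Cyp4a31 and 7.13 ± 0.43 for Cyp4a32, all called. With sex as a term over the KO libraries, 5 of 6 bile duct markers fell on PFOA (summed level 50.1 to 186 CPM on vehicle, 15.9 to 46.8 CPM on PFOA). In that fit 3 of 10 hepatocyte markers fell and 3 of 8 Kupffer cell markers rose, where 6.36% of genes were called lower and 7.41% higher. The 186 CPM belongs to KO female vehicle replicate 1, the library with Krt19 reads. In KO males alone none of the 6 bile duct markers was called (50.1 to 68.1 CPM on vehicle, 23.1 to 26.4 CPM on PFOA). There 5 hepatocyte markers fell and 1 Kupffer cell marker rose, where 531 of 15334 genes were called lower. The part of these shifts was not tested. The neutrophil markers summed to 0.32 to 1.54 CPM on vehicle and 88.7 to 327 CPM on PFOA in KO, with 1 of 2 tested called higher. Nearly all of that sum was S100a8 (88.2 to 327 CPM on PFOA). The list covers neutrophils and their precursors, and the sum also holds S100a9 and Retnlg. Its markers Ly6g, Mpo and Elane were each at most 0.182 CPM in any library. What the rise of S100a8 reflects was not tested.

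The fit of the KO females alone, with 1 vehicle library that borrows its spread from the other groups, was added after the values were seen. It called Cyp4a10 (log2 fold change 10.73 ± 1.52 SE, adjusted p = 0.0122) and Cyp4a32 (adjusted p = 0.0395) higher; Cyp4a32 had 0 counts in that vehicle library, so its size is given only as the bound of at least 13.6-fold above. In that fit 2.33% of genes were called higher. Cyp4a14 (8.38 ± 2.26, adjusted p = 0.102) and Cyp4a31 (4.64 ± 1.31, adjusted p = 0.0654) did not pass (edgeR). That vehicle library is the one with Ddx3y and Krt19 reads.

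KO mice had less of all 4 transcripts than hPPARa mice in both waters. On PFOA, 4 of 4 were called lower in KO in the joint fit of the 20 libraries, where 7.79% of the 15811 genes tested were called lower. Cyp4a10 differed least, with a log2 difference of -3.57 ± 0.55 SE (adjusted p = 0.000548; 11.8-fold lower), followed by Cyp4a31 at -4.94 ± 0.35 (1.51e-07; 30.7-fold), Cyp4a14 at -5.28 ± 0.72 (0.000189; 38.8-fold) and Cyp4a32 at -5.46 ± 0.37 (1.45e-07; 43.9-fold). The mean level in KO PFOA libraries was 10.2% of the hPPARa PFOA mean for Cyp4a10, 3.40% for Cyp4a14, 3.46% for Cyp4a31 and 3.29% for Cyp4a32. Without the 3 KO libraries all 4 differences were still called, between -3.33 for Cyp4a10 and -5.32 for Cyp4a32. On PFOA 6 of 8 Kupffer cell markers were also higher in KO, where 1127 of the 15811 genes tested were called higher. Their summed levels were 207 to 342 CPM against 99.3 to 281 CPM, and the part of these markers was not tested. The neutrophil markers, again through S100a8, summed to 88.7 to 327 CPM in KO and 3.363 to 9.01 CPM in hPPARa on PFOA, with 1 of 2 tested called higher.

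On vehicle, 4 of 4 were lower in KO as well, where 1.76% of genes tested were called lower. Cyp4a32 showed the largest log2 difference, -7.60 ± 0.81 SE (adjusted p = 0.000115). Its count ratio of hPPARa over KO was 114 (95% interval 48.6 to 352), with the sexes pooled in unequal numbers. Cyp4a10 differed by -4.39 ± 0.79 (adjusted p = 0.00803), Cyp4a14 by -4.52 ± 0.94 (0.0168) and Cyp4a31 by -4.71 ± 1.17 (0.0349). Every KO vehicle library was below every hPPARa vehicle library for Cyp4a10, Cyp4a31 and Cyp4a32. Cyp4a14 overlapped, since KO male vehicle replicate 3 (4.51 CPM) lay above hPPARa male vehicle replicate 2 (4.15 CPM). The Cyp4a14 and Cyp4a31 calls were lost without KO female vehicle replicate 1 (adjusted p = 0.0613 and 0.0810, edgeR) and without the 3 KO libraries (0.0607 and 0.0599), where Cyp4a10 (-3.82, adjusted p = 0.0479) and Cyp4a32 (-7.77, 0.00035) still passed. The Cyp4a31 call was also lost without any 1 of the 3 hPPARa female vehicle libraries or any 1 of the 3 KO male vehicle libraries, with adjusted p from 0.0612 to 0.0842 (edgeR). In KO vehicle libraries 3 of 6 bile duct markers were higher, where 317 of the 15811 genes tested were called higher. Their summed level was 186 CPM in KO female vehicle replicate 1 and 50.1 to 68.1 CPM in KO vehicle males. In hPPARa on vehicle it was 34.0 to 37.8 CPM in females and 30.4 to 30.7 CPM in males. The part of these markers was not tested.

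**Figure D2:**
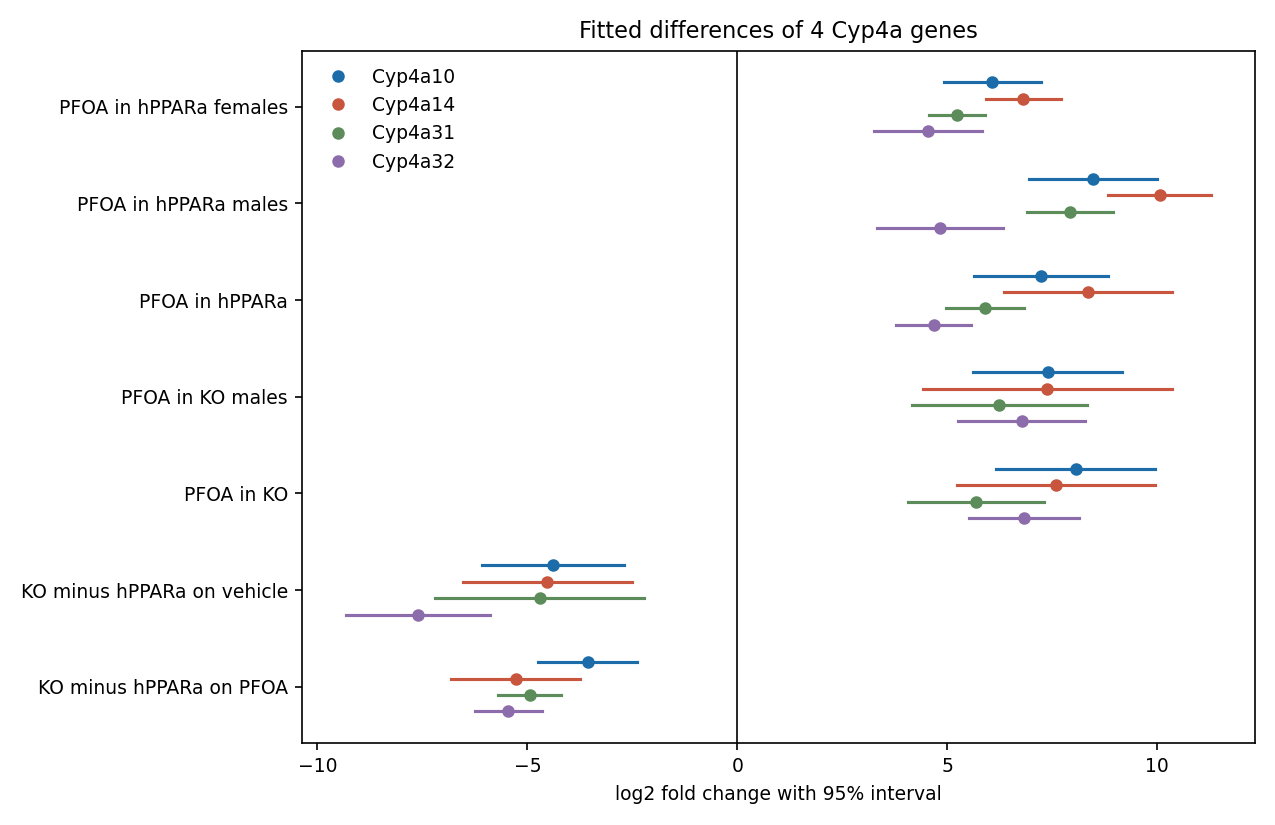
Fitted log2 fold change (x axis, points) with approximate 95% intervals (lines) of the 4 genes in 7 comparisons (y axis). The PFOA effects lie to the right of 0 in both genotypes (hPPARa 4.68 to 8.36, KO 5.69 to 8.06), and the KO minus hPPARa differences lie to the left of 0 on vehicle and on PFOA.

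The difference between the PFOA effects of the 2 genotypes was tested itself. None of the 4 genes was called, where 1.17% of genes tested were called, and at an unadjusted p under 0.05 the count was also 0; DESeq2 also called none. The log2 difference, KO minus hPPARa, was 0.83 ± 0.97 SE for Cyp4a10 (95% interval -1.25 to 2.91, adjusted p = 0.765), -0.76 ± 1.21 for Cyp4a14 (-3.34 to 1.82, 0.835) and 2.15 ± 1.22 for Cyp4a32 (-0.46 to 4.75, 0.466). For Cyp4a31 the edgeR log2 difference was -0.23, and the standard error worked back from so small a value (7.53) was not usable. DESeq2 gave -0.41 ± 1.26 (adjusted p = 0.931). The intervals of Cyp4a10, Cyp4a14 and Cyp4a32 include 0 and values of both signs, and do not show that the effects are alike. Leaving out 1 library at a time moved the difference between 0.16 and 1.496 for Cyp4a10 and between -1.41 and 0.0017 for Cyp4a14, with none called. Without the 3 KO libraries the log2 differences were 0.49 for Cyp4a10, -0.48 for Cyp4a14, 0.70 for Cyp4a31 and 2.45 for Cyp4a32, again none called. For the sum of the 4 rows the difference was 0.24 ± 0.96 SE (95% interval -1.81 to 2.28, adjusted p = 0.942). In levels, Cyp4a10 in KO PFOA libraries (150 to 682 CPM) stood above every hPPARa vehicle library (at most 85.5 CPM), while the KO PFOA range of Cyp4a14, Cyp4a31 and Cyp4a32 overlapped that of hPPARa on vehicle.

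Sex was examined within each genotype. In hPPARa the additive sex term was called for none of the 4 genes, where 3.48% of genes were called; no member had an unadjusted p under 0.05, and DESeq2 called none either. Within each sex, 4 of 4 genes were called higher on PFOA (5.3% of genes in males and 10.5% in females were called higher). The male effects were 10.06 ± 0.55 SE (log2; adjusted p = 7.49e-06) for Cyp4a14, 8.48 ± 0.66 (0.000193) for Cyp4a10, 7.93 ± 0.47 (3.85e-06) for Cyp4a31 and 4.83 ± 0.64 (0.00472) for Cyp4a32. The female effects were 6.81 ± 0.40 (8.46e-06) for Cyp4a14, 6.07 ± 0.50 (0.000227) for Cyp4a10, 5.23 ± 0.30 (2.43e-06) for Cyp4a31 and 4.53 ± 0.55 (0.00204) for Cyp4a32. The difference, male minus female, was 3.25 ± 0.53 for Cyp4a14 (adjusted p = 0.0771), 2.70 ± 0.71 for Cyp4a31 (0.269), 2.41 ± 0.66 for Cyp4a10 (0.309) and 0.30 ± 0.76 for Cyp4a32 (0.921), so that none passed the edgeR test, which called 0.104% of genes; 3 of 4 had an unadjusted p under 0.05. DESeq2 called 2 of 4, Cyp4a14 (3.25, adjusted p = 6.60e-05) and Cyp4a31 (2.75, 0.0195). The edgeR standard errors of these differences are approximate and do not combine those of the male and female effects. DESeq2 gave 0.614 for Cyp4a14, 0.715 for Cyp4a31, 0.716 for Cyp4a10 and 0.830 for Cyp4a32. Without hPPARa male vehicle replicate 1, edgeR called Cyp4a10 (3.66, adjusted p = 0.00452) and Cyp4a14 (4.17, 0.0021), and without replicate 2 it called Cyp4a14 (2.70, 0.0325). Without hPPARa male PFOA replicate 2, it called Cyp4a31 (2.93, 0.0330).

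In KO the sex term was called for Cyp4a32, 2.62 ± 0.41 SE higher in males (log2; adjusted p = 0.00809; 6.13-fold), where 1.26% of genes were called higher in males. Every KO male PFOA library (5.36 to 19.9 CPM) was above every KO female PFOA library (1.35 to 2.57 CPM) for Cyp4a32. Without the 3 KO libraries the difference was 3.06 ± 0.34 (adjusted p = 0.00173). Cyp4a14 (1.01 ± 0.76, adjusted p = 0.520), Cyp4a31 (0.51 ± 0.49, 0.608) and Cyp4a10 (-0.41 ± 0.61, 0.768) were not called. The difference of the sex terms between genotypes, added after these values were seen, was 2.70 ± 0.62 for Cyp4a32 (unadjusted p = 0.000598, adjusted p = 0.411, edgeR). The sex difference of Cyp4a32 is therefore not shown to be particular to KO.

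The balance between Cyp4a14 and Cyp4a10 within a library also moved. It is the ratio of their counts in the same library, free of scaling between libraries but not of transcript length. In hPPARa mice on PFOA the Cyp4a14 to Cyp4a10 ratio was 2.06 and 2.06 in females and 2.30, 2.01 and 2.08 in males. On vehicle it was 1.23, 1.25 and 1.22 in females and 0.662 and 0.899 in males, below every PFOA library. In KO mice on PFOA it was 0.471, 0.497 and 0.206 in females and 1.37, 0.472 and 1.47 in males, all below the hPPARa PFOA libraries. On vehicle, where KO libraries held few counts of either gene, the ratio was 2.0 in the KO female (12 against 6 counts) and 1.0, 0.929 and 1.51 in the KO males. The KO female vehicle library thus lay above the KO female PFOA libraries, the reverse of the order in hPPARa, with 1 library and no test. On PFOA 2 of the KO males had more Cyp4a14 than Cyp4a10 counts, and the other KO libraries had fewer. The male library with the low ratio, KO male PFOA replicate 2, is the one with Xist reads, and whether the 2 go together was not tested.

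This ratio was compared in 4 ways, all chosen after its values were seen, by two-sided exact permutation of log2 ratios, within sex where both sexes entered. The ratio was 2.15-fold higher on PFOA than on vehicle in hPPARa (exact p = 0.01, the smallest its 100 arrangements allow; adjusted over the 4 tests, 0.02). It was 3.50-fold higher in hPPARa than in KO on PFOA (exact p = 0.005, the smallest of 200 arrangements; adjusted 0.02). In KO males PFOA and vehicle did not separate (exact p = 0.8, adjusted 0.8), and KO males and females on PFOA differed 2.70-fold without passing (exact p = 0.2, adjusted 0.267, where 0.1 is the smallest possible). For the PFOA effect in hPPARa and the genotype difference on PFOA, the libraries had already been seen not to overlap. Those p-values were therefore bound to be the smallest possible and add nothing to the values. Without the other-sex libraries the KO PFOA ratios still spanned 0.206 to 1.47.

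**Figure D3:**
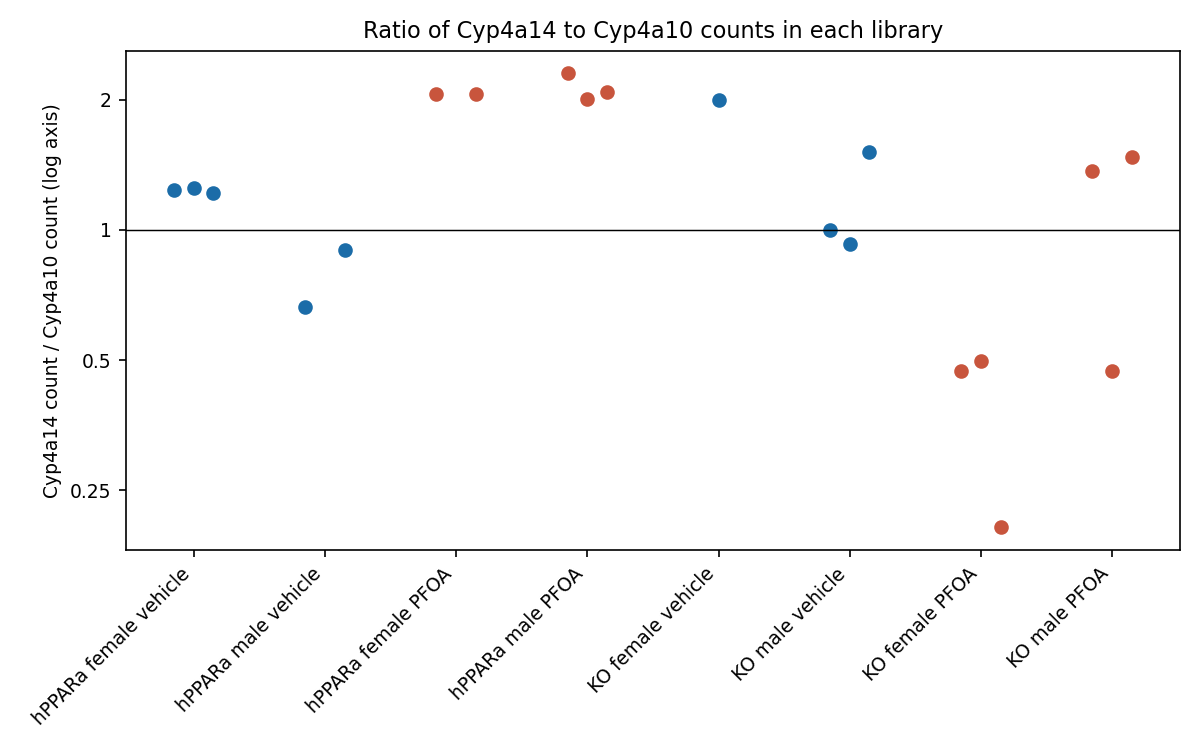
Ratio of Cyp4a14 to Cyp4a10 counts in each library (y axis, log axis) by group (x axis); blue points are vehicle and red points PFOA libraries, and the line marks equal counts. The 5 hPPARa PFOA libraries sit between 2.01 and 2.30, and the 6 KO PFOA libraries between 0.206 and 1.47.

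The balance of the near-copies Cyp4a32 and Cyp4a10 varied more widely across groups, and is given as values without a test. The ratio of Cyp4a32 to Cyp4a10 counts was 0.688 and 0.812 in hPPARa vehicle males and 0.310, 0.137 and 0.0562 in vehicle females. On PFOA it was 0.0478 to 0.0613 in hPPARa, 0.0357 to 0.0521 in KO males and 0.00247 to 0.00577 in KO females. The share of Cyp4a32 reads that come from Cyp4a10 was not measured, so the ratio is one of the rows as counted.

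The remaining Cyp4a genes of the list, Cyp4a12a and Cyp4a12b, encode the male-predominant CYP4A12 enzymes and are 98.49% identical to each other in coding sequence, so their rows are uncertain too. Cyp4a12a was at 0.06 to 2.10 CPM in hPPARa vehicle females and 251 and 361 CPM in hPPARa PFOA females, a log2 fold change of 8.23 ± 0.60 SE (adjusted p = 0.000164). In hPPARa males it was at 336 and 375 CPM on vehicle and 517 to 626 CPM on PFOA (0.71 ± 0.45, adjusted p = 0.422). The male minus female difference of the Cyp4a12a effect was -7.52 ± 0.72 (adjusted p = 0.0201), of opposite sign to that of Cyp4a10, Cyp4a14 and Cyp4a31. With sex as a term Cyp4a12a did not pass in hPPARa (3.78 ± 1.69, adjusted p = 0.154) or KO (1.44 ± 0.62, 0.170), and Cyp4a12b rose in both (4.93 ± 0.53, adjusted p = 0.000514, and 4.0 ± 0.68, 0.0085). Neither differed between genotypes on PFOA (Cyp4a12a -0.53 ± 1.04, adjusted p = 0.791; Cyp4a12b -0.86 ± 0.47, 0.248). Cyp4a29 and Cyp4a30b did not pass the filter on low counts.

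The lists that follow can be read against all genes tested. Of these, 12.8% were called higher and 9.76% lower on PFOA in hPPARa, and 7.41% higher and 6.36% lower in KO. For the difference between genotypes, 1.17% were called in either direction. In KO against hPPARa, 7.79% were called lower and 1127 of 15811 higher on PFOA, and 1.76% lower on vehicle. The lists were not counted again without the 3 other-sex KO libraries. Over all genes, leaving these out took genes called from 2113 to 630 for PFOA in KO and from 185 to 39 for PFOA by genotype. Changes of the other CYP4 genes were small in size. Of 12 listed, 7 were tested in hPPARa, with 3 higher and 1 lower on PFOA (median log2 fold change 0.34), and 8 in KO, with 1 higher and 1 lower (median 0.01). Cyp4f15 rose in both genotypes (0.79 ± 0.13 SE, adjusted p = 0.00102, in hPPARa; 0.95 ± 0.12, 0.000341, in KO), and Cyp4f14, an omega-hydroxylase of leukotriene B, fell in both (-0.88 ± 0.27, 0.047; -0.97 ± 0.23, 0.019). Of the 4 electron donors of P450 enzymes, 2 rose in hPPARa and 4 in KO. Cyb5b and Cyb5a were called in both. Por, the reductase that feeds electrons to microsomal P450, rose by 0.85 ± 0.14 in KO (adjusted p = 0.00199) and was at 0.36 ± 0.25 in hPPARa (0.325); the difference was not called (0.49 ± 0.30, adjusted p = 0.497).

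Of 12 genes for the steps after omega-hydroxylation (alcohol and aldehyde dehydrogenases and acyl-CoA synthetases), 6 rose and 1 fell on PFOA in hPPARa (median log2 fold change 0.42), and 5 rose and none fell in KO (median 0.38). Aldh3a2, the fatty aldehyde dehydrogenase, rose by 2.66 ± 0.21 SE in hPPARa (adjusted p = 3.61e-06) and 1.53 ± 0.25 in KO (0.00319). Acsl1, an acyl-CoA synthetase, rose by 1.03 ± 0.13 (0.000105) and 0.89 ± 0.16 (0.00333). Adh7 fell in hPPARa (-1.12 ± 0.19, adjusted p = 0.00155). None of the 12 differed in PFOA effect between genotypes, and 5 were lower and 1 higher in KO on PFOA.

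Of 18 tested genes for peroxisomal import, oxidation and hydrolysis of dicarboxylic and very long acyl-CoA, 12 rose in hPPARa (median 1.02) and 11 in KO (median 0.67), and none fell. Here the PFOA effect of 4 was called smaller in KO. Ehhadh, the peroxisomal bifunctional enzyme, rose by 3.96 ± 0.13 SE in hPPARa (adjusted p = 1.09e-09) and 1.44 ± 0.20 in KO (0.000827), a difference of -2.52 ± 0.23 (2.11e-06). Acot8, a peroxisomal thioesterase, rose in hPPARa (0.91 ± 0.10, adjusted p = 2.62e-05), with a difference of -0.92 ± 0.13 (0.00199). On PFOA 13 of the 18 were lower in KO and 1 was higher, and on vehicle 7 were lower. The standard errors of these genes were smaller than those of the 4 Cyp4a genes, and the difference seen for Ehhadh lies inside the 95% interval of Cyp4a14 and below those of Cyp4a10 and Cyp4a32.

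Among 21 tested genes commonly read as PPARa targets, 17 rose in hPPARa (median 1.81) and 14 in KO (median 0.96), none fell, and 7 had a smaller PFOA effect in KO. Mogat1, an acyltransferase of triglyceride synthesis, rose by 7.75 ± 0.27 SE in hPPARa (adjusted p = 1.11e-09) and 4.72 ± 0.96 in KO (0.0062), and the difference was not called (-3.03 ± 1.98, 0.528). Of 10 genes read as CAR or PXR targets or receptors, 6 rose and 2 fell in hPPARa, 6 rose and 1 fell in KO, and 3 had a larger PFOA effect in KO. Cyp2b10, the usual CAR target, rose by 8.99 ± 0.59 in hPPARa (2.66e-05) and 9.47 ± 0.24 in KO (4.74e-11), and Cyp3a11 by 2.56 ± 0.18 (1.00e-06) and 3.74 ± 0.22 (9.45e-07), with a difference of 1.18 ± 0.27 (0.0383). Of 17 PPAR family members, RXR partners and cofactors, 2 rose and 4 fell in hPPARa and 3 rose and 3 fell in KO. Pparg, a related receptor, rose in both (1.76 ± 0.30, 0.00283; 0.84 ± 0.12, 0.00053), and Ppard fell in both (-0.50 ± 0.14, 0.0196; -0.66 ± 0.14, 0.00771).

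**Figure D4:**
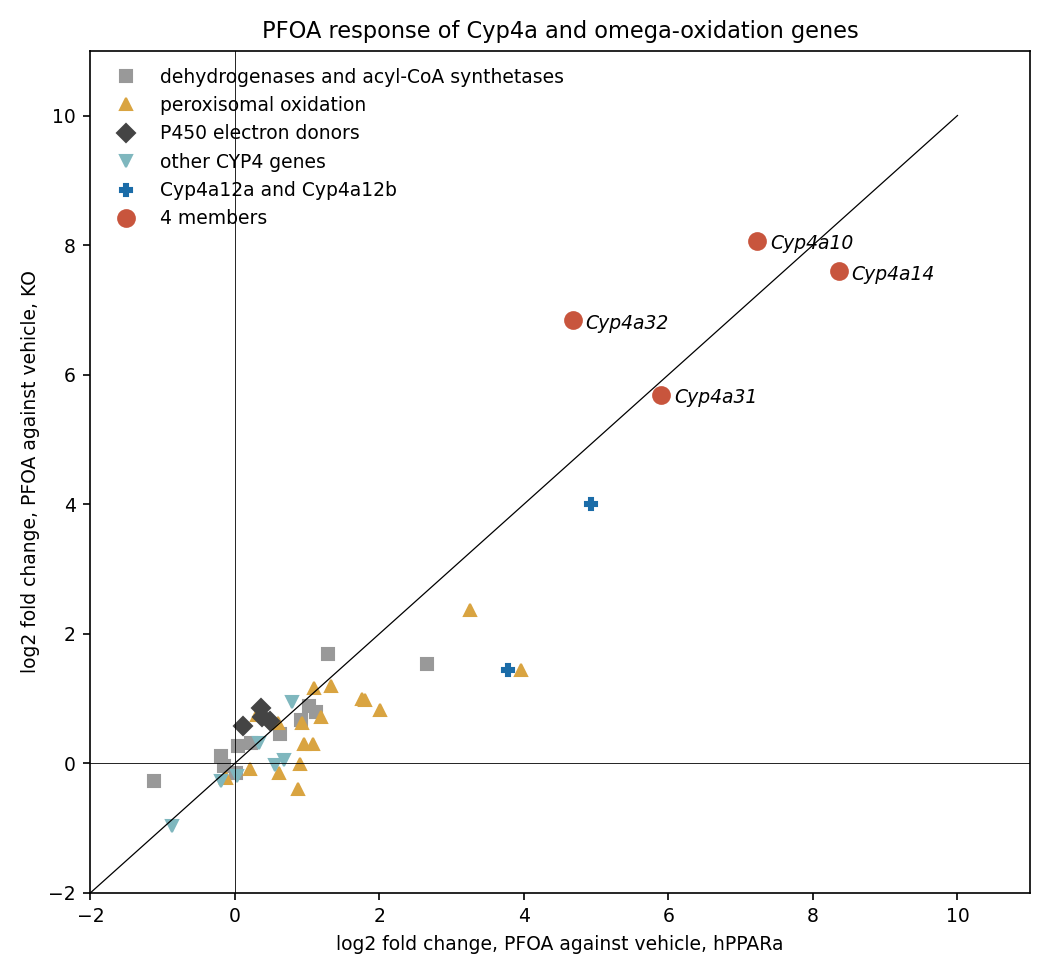
PFOA effect in KO (y axis, log2 fold change) against that in hPPARa (x axis, log2 fold change) for the 4 Cyp4a genes (red) and the listed genes of omega-oxidation and its later steps; the line marks equal effects. The 4 Cyp4a genes lie farthest from the origin, with effects of 4.68 to 8.36 in hPPARa, while Ehhadh at 3.96 and 1.44 lies below the line.

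The genes whose pattern was most like each Cyp4a gene were found by the root mean square difference of log2 CPM (prior count of 2) over the 20 libraries, each gene centred on its own mean, among 11635 genes. Vnn1, a pantetheinase, was the nearest for all 4, at 0.66 log2 units for Cyp4a31, 1.54 for Cyp4a32, 2.0 for Cyp4a14 and 2.11 for Cyp4a10. Mogat1 was the second for Cyp4a14, Cyp4a31 and Cyp4a32 (2.42, 1.25 and 1.79) and the third for Cyp4a10 (2.63). Pnliprp1, Cyp2b10 and Cyp2c66 completed the 5 nearest to Cyp4a10, Pnliprp1, Fitm1 and Acaa1b those to Cyp4a14, Acot2, Ehhadh and Slc6a16 those to Cyp4a31, and Slc6a16, Fitm1 and Acaa1b those to Cyp4a32. Within the 4, Cyp4a10 and Cyp4a14 were the closest pair (0.90), followed by Cyp4a31 and Cyp4a32 (1.34; with a prior count of 0.5 they were at 1.51, behind Cyp4a14 and Cyp4a31 at 1.46), and Cyp4a10 and Cyp4a32 the farthest (2.14, and 2.06 with a prior count of 0.5). So the pair nearest in coding sequence, Cyp4a10 and Cyp4a32, was the farthest apart on this measure, in which the prior count shrinks the range of genes with few counts such as Cyp4a31.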

How the data were processed

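Bulk liver total RNA (RIN above 7) was sequenced in 20 libraries. The authors deposited raw counts per gene, 1 matrix per genotype; the submitters' processing notes name cutadapt 1.15, FastQC 0.11.5, STAR 2.5.3, featureCounts 1.6.1, R 4.1.0, edgeR 3.36.0 and GRCm39. For strand setting and reads with several matches: not given in the sources used here.

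Groups came from the titles. edgeR 4.0.16 (R 4.3.3; TMM, filterByExpr by group, robust quasi-likelihood fit, Benjamini-Hochberg, threshold 0.05) was fitted to the counts of all genes, with sex as a term within each genotype, as a 4-group model for effects within a sex, and jointly for comparisons between genotypes. Alternatives were DESeq2 1.42.0, RLE factors, other filters, each library left out, the 3 other-sex KO libraries left out and a replicate block. The scripts were tested on simulated data. The total of 14973673 to 17953860 counts per library sets the counting precision. Intervals of count ratios and floors (3 counts) cover counting error only. Nothing says that replicates are separate animals, so p-values measure the spread between libraries, which may be technical; no 2 libraries of a group agreed within sampling noise.

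Beside the 4 genes and Ppara, named genes are all measured other Cyp4a genes, up to 4 per list with the smallest adjusted p for PFOA in hPPARa and up to 2 for the difference between genotypes and the 5 nearest by pattern. A gene that this rule names is not reported here. Markers and genes of the other sex are named as checks. The genes, lists and tests were chosen with earlier results of these data known. Coding sequences are from GENCODE M21 (GRCm38), aligned with Biopython 1.88; no coordinates were carried between builds. Transcript lengths come from the same release.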

Additional observations from a re-analysis of the deposited data

How the results depend on the processing

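Over 44 results of the 4 Cyp4a genes (11 comparisons each), 844 alternative values were computed. Of these, 821 kept their side of the threshold, 16 no longer passed, 7 newly passed and none of the called values reversed. Values called in neither fit could change direction and still count among the 821. The PFOA by genotype difference of Cyp4a31, for example, ran from -0.609 to 0.700. All 64 alternative group levels (CPM without TMM, or with RLE factors) were labelled unchanged. In groups with replicates they stayed within the SD of the group. The single KO female vehicle library has no spread, so its levels were held against the counting error of its count.

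The replicate numbers did not pair the libraries (correlation of deviations between same-numbered libraries -0.126 to 0.112, 1 of 22 above 0.1), so the replicate block is given here only. With the block, KO minus hPPARa on vehicle was -4.16 for Cyp4a10 (adjusted p = 0.11) and -3.94 for Cyp4a14 (0.179), and PFOA in KO males was 7.05 for Cyp4a14 (0.0506), none of which passed (edgeR); no other call of the 4 genes changed. The block took genes called from 523 to 206 for sex in KO, 185 to 104 for PFOA by genotype, 596 to 66 for genotype on vehicle and 2359 to 619 for genotype on PFOA.

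For KO minus hPPARa on vehicle, Cyp4a31 was -4.69 without the filter (adjusted p = 0.0570) and -5.30 without the 3 other-sex KO libraries, where Cyp4a14 was -4.54. For PFOA by sex in hPPARa, DESeq2 gave 3.25 for Cyp4a14 and 2.75 for Cyp4a31, and 2.66 for Cyp4a31 came without the filter (1.09e-05), each past the threshold. The cause was not tested.

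Leaving out 1 library at a time gave, for genotype on vehicle, -5.07 to -3.74 for Cyp4a10, -5.28 to -4.22 for Cyp4a14 and -5.25 to -4.33 for Cyp4a31; for PFOA by sex in hPPARa, 1.76 to 3.66 for Cyp4a10, 2.70 to 4.17 for Cyp4a14 and 2.33 to 3.22 for Cyp4a31; and for PFOA in KO males, 6.56 to 8.35 for Cyp4a14. Genes called ranged from 1905 to 3889 for PFOA in hPPARa, 468 to 1320 in its males, 796 to 3242 in its females, 4 to 27 for PFOA by sex, 255 to 686 for sex in hPPARa, 1401 to 2129 for PFOA in KO, 635 to 1503 in its males, 127 to 609 for sex in KO, 67 to 239 for PFOA by genotype, 351 to 701 for genotype on vehicle and 1638 to 2498 for genotype on PFOA. Fits with fewer libraries have fewer degrees of freedom.

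Against the main counts, DESeq2 called 927 genes in place of 501 for sex in hPPARa, 930 in place of 523 for sex in KO, 420 in place of 185 for PFOA by genotype, 927 in place of 596 for genotype on vehicle and 138 (79 higher and 59 lower) in place of 15 (6 and 9) for PFOA by sex. Without the filter the same 5 counts were 1088, 1322, 545, 1013 and 323. Without the 3 other-sex KO libraries they were 630 in place of 2113 for PFOA in KO, 630 in place of 1395 in KO males, 94 for sex in KO, 39 for PFOA by genotype and 195 for genotype on vehicle. The joint fit of all libraries called 836 for sex in KO. Depth limits Cyp4a31 and Cyp4a32 most, with 2 and 5 counts in the 4 KO vehicle libraries.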
